A study of Mus musculus with 18 samples.

Results

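The comparison concerns activated mouse CD4+ T cells cultured with a low dose of TGF-b, 0.2 ng/ml, against cells cultured with none. Its 4 libraries, of 18 in the series, are the 2 WT libraries at 0.2 ng/ml and the 2 WT libraries at 0 ng/ml, taken by their labels. Naive CD4+ T cells were sorted from spleens of C57BL/6 mice, activated through CD3 and CD28 with antibodies, and collected on day 4. The WT mice carried the Cd4Cre transgene, a recombinase driven by regulatory sequence of Cd4, and no floxed allele, so the transgene is present in both WT groups. Other libraries are used for reference. WT cells at 2 ng/ml TGF-b make up 2 libraries. The tKO cells, Egln1 fl/fl Egln2 fl/fl Egln3 fl/fl Cd4Cre, were made to lose in T cells the 3 oxygen-sensing enzymes that target HIF for breakdown, and were cultured at 0, 0.2 and 2 ng/ml with 2 libraries each. The labels give no age for the mice. The labels number the libraries of a group 1 and 2 without saying whether they came from separate mice. The p-values therefore measure only the spread between libraries within groups, which may be technical. That spread was pooled over the 6 WT and tKO groups.

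TGF-b binds a receptor pair, Tgfbr2 and Tgfbr1, which phosphorylates the SMAD2 and SMAD3 proteins. These enter the nucleus with SMAD4, act on target genes, and induce inhibitors that dampen the pathway. In naive CD4+ T cells receiving T cell receptor and IL-2 signals, TGF-b is known to induce Foxp3, the transcription factor of regulatory T cells, and to hold back the Th1 programme driven by Tbx21 (T-bet).

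Values are FPKM, a read density corrected for transcript length and library size, given for replicate 1 and then replicate 2. Genes are described as called, risen or fallen where limma's moderated test on log2(FPKM + 1) gave a Benjamini-Hochberg adjusted p under 0.05, and fold changes are on that log2 scale with their standard error. FPKM sums of the 4 libraries were between 630548 and 676963, and 9946 to 10068 symbols reached 1 FPKM. Absolute depth is unknown. Reads per FPKM, estimated from low values relative to the other libraries, ranged from 0.805 in 0.2 ng/ml replicate 1 to 1.28 in 0 ng/ml replicate 1. Log2 values of the replicates correlated across genes with Pearson's r = 0.983 at 0 ng/ml and 0.977 at 0.2 ng/ml, where genes are not independent replicates. The first principal component of the 6 WT libraries held 56.0% of the variance, and the low-dose libraries lay between those at 0 and those at 2 ng/ml.

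Marker genes were checked first. Cd4 stood at 212 and 159.5 FPKM in the controls and 153 and 170.3 at 0.2 ng/ml, and Cd8a, the CD8 coreceptor, stayed below 1 FPKM in all 4 libraries. Of 9 myeloid markers, 5 were at 0 in all 4 libraries, and the summed level of the 9 was between 0.645 and 2.26 FPKM. The summed level of 8 B cell markers went from 45.6 to 67.7 FPKM in replicate 1 and from 18.0 to 40.6 in replicate 2. That of 8 dendritic cell and MHC class II markers went from 774 to 1126 and from 464 to 607 FPKM, with 2 markers at 0 in all 4 libraries. No tested B cell or MHC class II marker was called. These sums were higher at 0.2 ng/ml in both replicates, and their part in the increases described below was not tested. The summed level of 5 NK cell markers went from 2.41 to 0.798 FPKM in replicate 1 and from 1.75 to 0.0533 in replicate 2, with 2 of the 5 at 0 in all 4 libraries. That of 2 CD8 T cell markers went from 8.09 to 6.51 and from 7.40 to 4.19 FPKM. These low sums were lower at 0.2 ng/ml in both replicates, and their part in the decreases of Th1 and cytotoxic genes was not tested. In bulk libraries such as these, fewer cells of a type and less RNA per cell cannot be told apart.

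Low TGF-b changed 165 of 10354 tested genes, 1.59% of them, of which 95 rose (0.918%) and 70 fell (0.676%). The 165 included 83 that rose and 50 that fell by at least 1 on the log2 scale. The largest increases were in Ldlrad4, Gm14085 and Ctsw, and the largest decreases in the joint entry Ly6a,Ly6c1, in Snord49a and in Tgm2. The median log2 fold change over all tested genes was -0.02. With 2 libraries against 2, the groups did not overlap for 48.4% of all tested genes and for 100% of the 165 called genes. Each statement below that groups did not overlap or were apart is to be read against these shares. For a called gene it adds nothing to the call. An unadjusted p under 0.05 was reached by 1155 genes, 586 higher and 569 lower. All 165 kept their direction when any 1 of the 4 libraries was left out, but the number called was 31 without 0 ng/ml replicate 1, 74 without 0 ng/ml replicate 2, 62 without 0.2 ng/ml replicate 1 and 45 without 0.2 ng/ml replicate 2. Of the 165, 24 were called in all 4 of those fits, 17 that rose and 7 that fell.

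**Figure D1:**
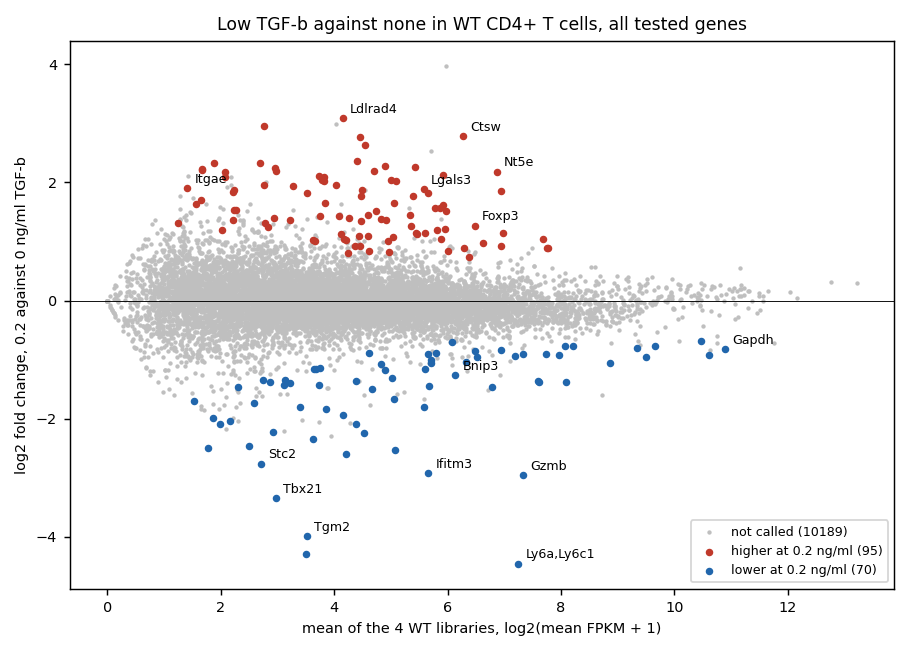
Log2 fold change of each tested gene at 0.2 against 0 ng/ml TGF-b in WT cells (vertical axis) against the mean level of the 4 libraries as log2(mean FPKM + 1) (horizontal axis). Red and blue points are the 95 genes that rose and the 70 that fell, and grey points are genes that were not called.

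The TGF-b pathway itself was described by its receptors and SMAD proteins, its inhibitors, its ligands and its known target genes. Of 12 tested receptors and SMAD proteins none was called by limma, and 2 had an unadjusted p under 0.05, both higher. Tgfbr1 was at 4.24 and 5.65 FPKM in the controls and 11.1 and 9.65 at 0.2 ng/ml, and Tgfbr2 at 13.1 and 13.3 FPKM without and 33.1 and 20.7 FPKM with the low dose. Neither was called, with log2 fold changes of 0.94 ± 0.33 (adjusted p = 0.246) and 0.94 ± 0.30 (adjusted p = 0.172). Smad3, which carries the signal to the nucleus, had a fold change of -0.34 ± 0.43 with adjusted p = 0.851. None of 5 tested ligand and activation genes was called, and 1 had an unadjusted p under 0.05. Tgfb1, the ligand that T cells make, was level at 92.1 and 82.3 FPKM without and 78.7 and 92.2 FPKM with the low dose.

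Of 9 tested inhibitors of the pathway, 2 rose and none fell, with a median log2 fold change of 0.80. Ldlrad4, a membrane protein that blocks SMAD recruitment to the receptor, was at 2.35 and 3.08 FPKM in the controls and at 26.1 and 35.4 with the low dose. The low-dose libraries were far above both controls, by 3.09 ± 0.24 on the log2 scale (adjusted p = 5.06e-05), and the call held without any 1 library. Tgif1, a SMAD corepressor, went from 18.8 and 21.4 to 39.8 and 48.0 FPKM (1.08 ± 0.18, adjusted p = 0.00863). Smad7, which targets the receptor for degradation, was at 2.89 and 2.23 FPKM without and 5.93 and 4.95 FPKM with the low dose, and Skil, another SMAD corepressor, at 5.43 and 6.38 FPKM without and 9.47 and 12.7 FPKM with the low dose. Neither was called (adjusted p = 0.184 and 0.174). 

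Among 12 tested target genes of TGF-b, 6 rose and none fell, with a median of 1.34. The members of this list, as of the others, were chosen with earlier results of these data known, so the counts are descriptions. The 6 were Ctsw, Sox4, Itgae, Ccr8, Nupr1 and Spsb1. Without 1 library, between 2 and 4 rose, with 2 both without 0 ng/ml replicate 1 and without 0.2 ng/ml replicate 2. Ctsw encodes cathepsin W, a protease of cytotoxic and regulatory T cells (mm9 chr19:5460593-5468540). It was at 18.5 and 17.9 FPKM in the controls and 109 and 158 at 0.2 ng/ml. Both low-dose libraries lay far above the controls (2.79 ± 0.19, adjusted p = 1.83e-05), the smallest adjusted p of the comparison. Sox4, a transcription factor induced by TGF-b in several tissues, went from 1.58 and 2.03 to 13.3 and 10.3 FPKM (2.19 ± 0.30, adjusted p = 0.00231). Itgae encodes CD103, the integrin chain that binds E-cadherin (mm9 chr11:72904096-72961744). It was near 0 without TGF-b, at 0.0709 and 0.136 FPKM, and at 2.33 and 4.09 FPKM with the low dose. The groups did not overlap (1.90 ± 0.36, adjusted p = 0.0179), and leaving out any 1 library ended the call, with adjusted p up to 0.216 over all settings. 

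**Figure D2:**
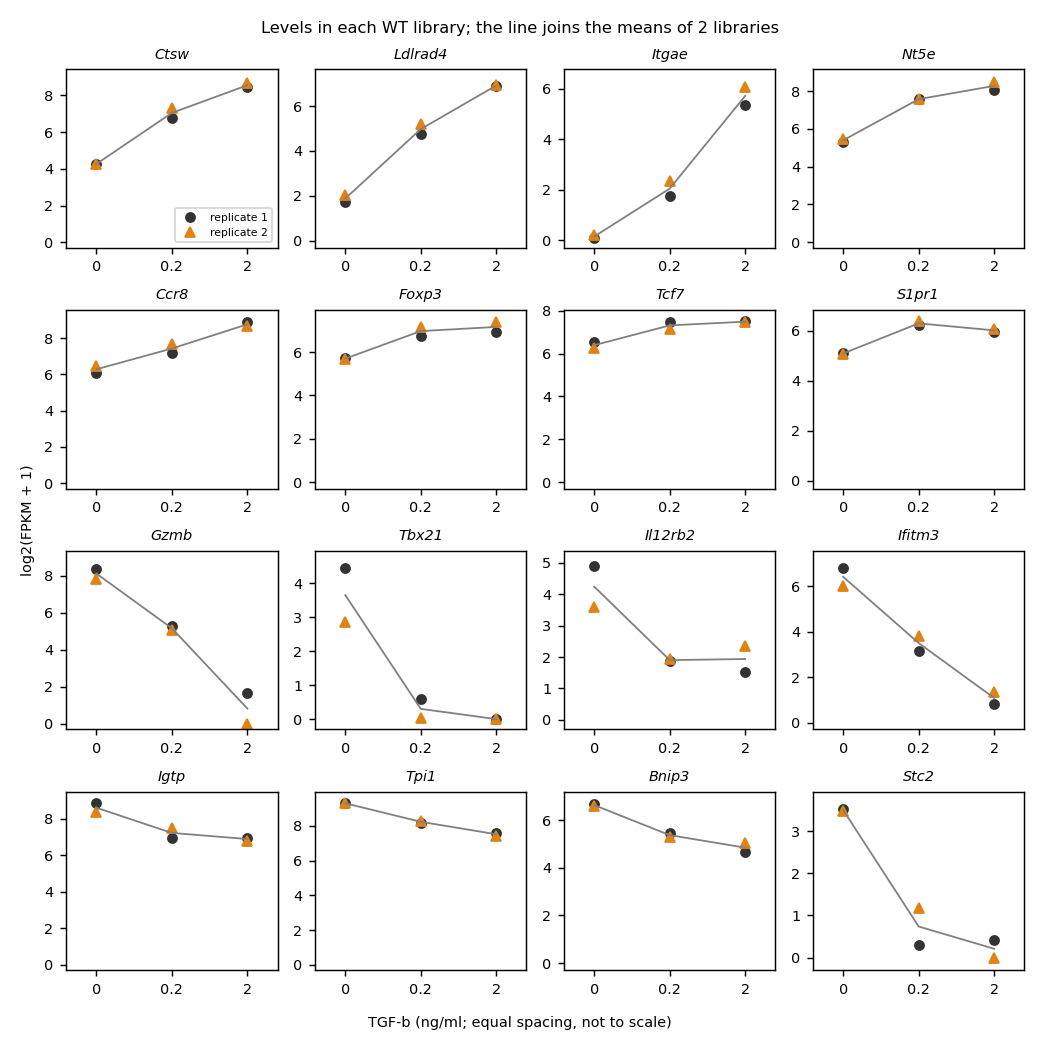
Level of 16 genes in each of the 6 WT libraries as log2(FPKM + 1) (vertical axis) by TGF-b dose (horizontal axis, not to scale), with circles for replicate 1, triangles for replicate 2 and a line through the group means. Genes of the top rows are higher at 0.2 than at 0 ng/ml, and those of the lower rows are lower.

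The dose of 0.2 ng/ml was set beside 2 ng/ml in the same WT cells. Against 0 ng/ml, 2 ng/ml changed 1626 genes (15.7%), of which 807 rose (7.79%) and 819 fell (7.91%). The comparisons with 0 ng/ml share the 2 control libraries. Between 2 and 0.2 ng/ml, 45 genes (0.435%) were called. Itgae was at 39.8 and 66.9 FPKM at 2 ng/ml, higher than at the low dose by 3.68 on the log2 scale (adjusted p = 0.000691). Ctsw reached 348 and 407 FPKM (1.51, adjusted p = 0.00262) and Ldlrad4 reached 117 and 122 (1.94, adjusted p = 0.00262). These genes had their highest level at the high dose. Foxp3 was also highest there in both replicates, at 120.3 and 168 FPKM. Its further difference of 0.19 ± 0.28 was not called (adjusted p = 0.843). Whether the dose steps differ between these genes was not tested.

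Regulatory T cell genes moved in both directions. Of 21 tested, 6 rose and 1 fell, with a median of 0.26. At an unadjusted p under 0.05, 6 were higher and 6 lower. With libraries scaled to the same FPKM sum, 3 rose and 2 fell. The risers were Foxp3, Ikzf4, Nt5e, Nrp1, Ccr8 and Itgae, and the gene that fell was Folr4. Ccr8 and Itgae also belong to the target genes above. Leaving out 1 library left between 0 and 2 risers, with 0 both without 0 ng/ml replicate 1 and without 0.2 ng/ml replicate 2. Foxp3 (mm9 chrX:7134466-7182546) was at 51.4 and 50.5 FPKM in the controls and 108 and 144 at 0.2 ng/ml. Both low-dose libraries exceeded both controls (1.27 ± 0.28, adjusted p = 0.0397), while the adjusted p rose as high as 0.346 under other settings. Nt5e encodes CD73, which makes adenosine from AMP. It went from 38.7 and 43.6 to 191 and 189 FPKM (2.18 ± 0.34, adjusted p = 0.00491). Ikzf4 (Eos), a cofactor of Foxp3, went from 8.59 and 6.29 to 15.8 and 15.9 FPKM (1.01 ± 0.22, adjusted p = 0.0357). Leaving out any 1 library ended the call of Ikzf4, and that of Nt5e held in only 1 of 4 fits that left out 1 library. Il2ra, the high-affinity IL-2 receptor chain, was at 359.9 and 320.3 FPKM in the controls and 247 and 278 with it, and was not called (adjusted p = 0.442).

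Of 14 tested Th1 genes, 4 fell and 1 rose, with a median of -1.21. Between 1 and 3 fell when 1 library was left out, and only 1 fell in 3 of those 4 fits. Tbx21, the transcription factor that defines Th1 cells (mm9 chr11:96959320-96976645), was at 20.7 and 6.22 FPKM in the controls and 0.497 and 0.0151 with the low dose. The control libraries differed widely from each other. Both low-dose libraries were below both controls (-3.34 ± 0.45, adjusted p = 0.00222), and the call held without any 1 library. Il12rb2 and Il12rb1, the chains of the IL-12 receptor, went from 28.9 and 10.9 to 2.66 and 2.82 FPKM (-2.34 ± 0.43, adjusted p = 0.0148) and from 46.0 and 28.0 to 13.4 and 10.9 (-1.50 ± 0.32, adjusted p = 0.0339). Ccl5, a chemokine of effector T cells, went from 25.5 and 18.0 to 6.15 and 4.57 FPKM (-1.83 ± 0.37, adjusted p = 0.026). Leaving out any 1 library ended its call. Cxcr6, a chemokine receptor, was the gene that rose, from 3.8 and 8.16 to 27.9 and 21.9 FPKM (1.95 ± 0.43, adjusted p = 0.0355). That call held in only 1 of 4 fits that left out 1 library. Ifng, the effector cytokine of Th1 cells, was at 2.47 and 0.969 FPKM and listed at 0 in both low-dose libraries, and it was not called (adjusted p = 0.562).

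Cytotoxic genes were split, with 1 of 10 tested rising and 2 falling. Gzmb, the killing protease granzyme B (mm9 chr14:56877694-56881097), went from 336 and 231 FPKM to 37.8 and 32.3. Every low-dose value was far below the controls (-2.96 ± 0.55, adjusted p = 0.0168), yet leaving out any 1 library ended the call. At 2 ng/ml it was at 2.14 FPKM in replicate 1 and listed at 0 in replicate 2. Serpinb9, an inhibitor of granzyme B, fell from 17.7 and 17.2 to 7.38 and 7.27 FPKM (-1.15 ± 0.24, adjusted p = 0.0306). Leaving out any 1 library ended this call too. Ctsw was the cytotoxic gene that rose.

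Other T cell lineages showed fewer calls. None of 8 tested Th17 genes and none of 6 follicular helper genes was called by limma, with 5 and 4 at an unadjusted p under 0.05. Ccr6, a receptor of Th17 and regulatory T cells, was at 26.6 and 35.5 FPKM in the controls and 64.4 and 104 with the low dose (adjusted p = 0.0737). Of 10 Th2 genes, 1 rose, Maf, from 3.32 and 5.68 to 21.6 and 20.8 FPKM (2.04 ± 0.33, adjusted p = 0.00584). Its call held in only 1 of 4 fits that left out 1 library. Gata3, which defines Th2 cells, was at 29.0 and 22.9 FPKM without and 27.4 and 31.9 FPKM with the low dose (adjusted p = 0.783).

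Of 14 tested genes of naive and recirculating T cells, 2 rose, and neither was called when any 1 library was left out. S1pr1, the receptor that guides T cells out of lymph nodes, went from 33.9 and 32.2 to 73.4 and 81.5 FPKM (1.20 ± 0.20, adjusted p = 0.0068). Tcf7, a transcription factor of naive and memory T cells, went from 92.0 and 74.6 to 179 and 139.7 (0.92 ± 0.18, adjusted p = 0.0216). For both genes the groups did not overlap. Klf2, which drives S1pr1, was at 130.5 and 120.3 FPKM without and 225 and 243 FPKM with the low dose (adjusted p = 0.0893).

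Several glycolysis genes fell at the low dose. Of 22 tested, 7 fell and none rose, with a median of -0.75 against -0.02 over all genes. The 7 were Tpi1, Slc16a3, Hk2, Pgk1, Gapdh, Aldoa and Pkm, which span glucose phosphorylation, the lower enzymes and lactate export. Leaving out 1 library left between 0 and 2 of them called, with 0 without 0 ng/ml replicate 1, while the median stayed between -0.79 and -0.70. Tpi1, triose phosphate isomerase (mm9 chr6:124758958-124764314), was at 629 and 626 FPKM in the controls and 287 and 313 with the low dose. The groups were well apart (-1.06 ± 0.16, adjusted p = 0.00461). Pgk1, phosphoglycerate kinase, went from 1026 and 997 to 588 and 599 FPKM (-0.77 ± 0.15, adjusted p = 0.0193), and Slc16a3, the lactate exporter MCT4, from 88.0 and 59.0 to 31.3 and 21.1 (-1.45 ± 0.26, adjusted p = 0.014). Slc2a1, the glucose transporter GLUT1, was at 77.0 and 58.4 FPKM without and 32.9 and 30.9 FPKM with the low dose and just missed the threshold (adjusted p = 0.0546).

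Of 27 other tested targets of HIF, the oxygen-regulated transcription factor, 5 fell and none rose: Bnip3, Ndrg1, Egln3, Stc2 and Mgarp. Between 2 and 4 fell when 1 library was left out. Bnip3, a mitophagy receptor, went from 101 and 94.8 to 42.9 and 37.9 FPKM (-1.26 ± 0.17, adjusted p = 0.00192), a call that held without any 1 library. Stc2, a secreted glycoprotein, went from 10.6 and 10.1 to 0.223 and 1.27 FPKM (-2.76 ± 0.29, adjusted p = 0.000406). Hif1a itself was at 92.9 and 63.3 FPKM without and 58.7 and 43.5 FPKM with the low dose (adjusted p = 0.636). The upstream sequence of Pgk1 is shown because the HIF core motif ACGTG lies in it, marked in capitals on either strand. It holds the 250 bases before the start of transcription in the RefSeq table of build GRCm38.p6, which is not the mm9 build of the FPKM table, at chrX:106186850-106187099 on the plus strand.
Pgk1: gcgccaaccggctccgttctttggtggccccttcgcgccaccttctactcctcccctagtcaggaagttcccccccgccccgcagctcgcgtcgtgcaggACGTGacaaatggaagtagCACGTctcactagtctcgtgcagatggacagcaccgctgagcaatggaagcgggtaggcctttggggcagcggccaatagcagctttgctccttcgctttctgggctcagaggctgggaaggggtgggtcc
The first bases of its 2 matches lie at -150 and -131 from the start. Of 21 tested glycolysis genes matched in that table, 11 (52.4%) had the motif in such a stretch, against 26.6% of matched tested genes and 18.5% of all genes in the table. A gene counted if any of its promoters held it. By promoter, it was in 41.2% of those of tested glycolysis genes, 22.9% of those of tested genes and 16.6% of all promoters. Of matched genes called at the low dose, it was in 30.6% of those that fell and 19.4% of those that rose. The stretch upstream of Tpi1, the glycolysis gene with the smallest p, is not shown, and whether it holds the motif is not reported here. A match is a description of letters and not a binding site, and the sequences printed here were chosen after the matches were seen.

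**Figure D3:**
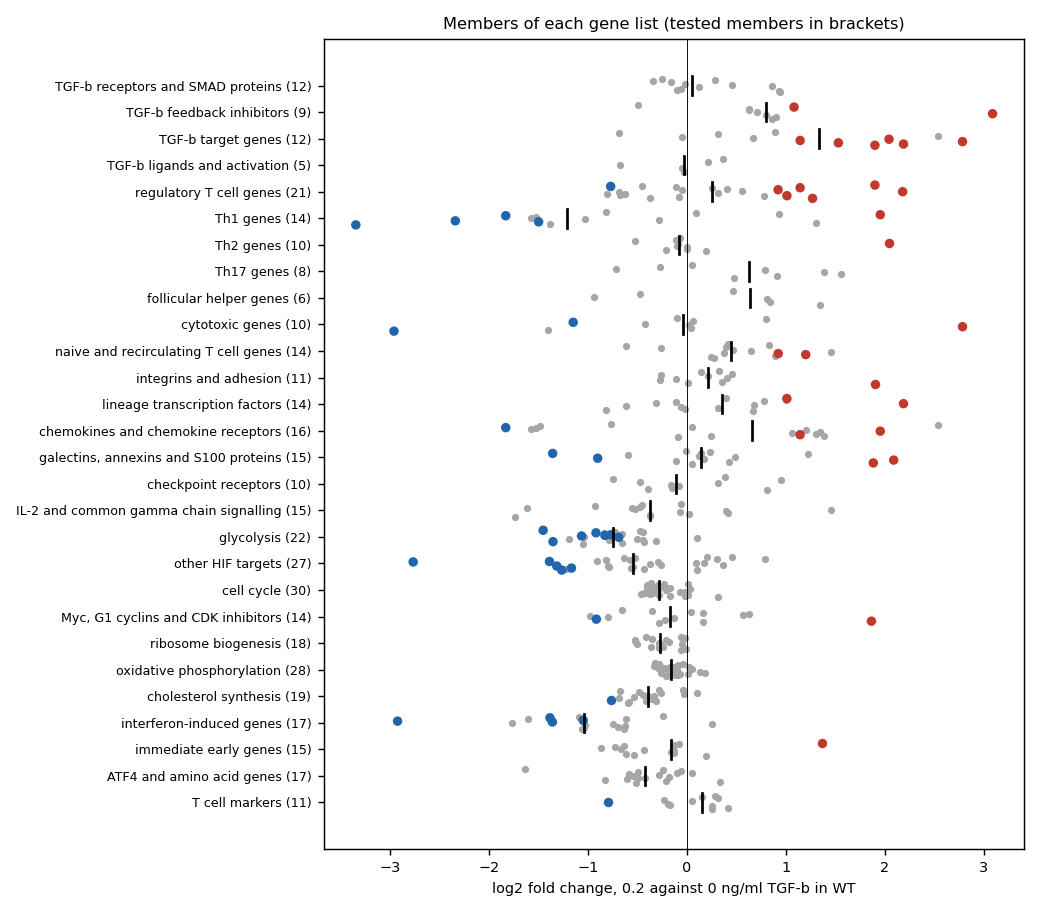
Log2 fold change at 0.2 against 0 ng/ml TGF-b in WT cells (horizontal axis) of each tested member of 28 gene lists (vertical axis, tested members in brackets). Red and blue points are called genes, grey points are not called, and black bars are list medians, such as -0.75 for glycolysis and 1.34 for the target genes.

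Some interferon-induced genes fell. Of 17 tested, 4 fell and none rose, with a median of -1.04, and 9 were lower at an unadjusted p under 0.05. The 4 were Ifitm3, Ifitm2, Igtp and Bst2. Between 1 and 4 fell when 1 library was left out, with 1 without 0.2 ng/ml replicate 1. Ifitm3, which restricts virus entry (mm9 chr7:148195488-148196643), went from 113 and 63.7 to 7.99 and 13.3 FPKM. Every low-dose value was below every control value (-2.92 ± 0.35, adjusted p = 0.000935), and the call held without any 1 library. Igtp, an interferon-induced GTPase, went from 457 and 330.1 to 123 and 179.6 FPKM (-1.38 ± 0.21, adjusted p = 0.00491), and Bst2, which tethers virus particles, from 113 and 101 to 46.5 and 56.3 (-1.05 ± 0.23, adjusted p = 0.0405). Irf1, a transcription factor induced by interferon, also fell, from 223 and 104 to 48.3 and 62.4 FPKM (-1.46 ± 0.28, adjusted p = 0.0192). It stands outside the list and was named after its values were seen. Leaving out any 1 library ended the call of Bst2. The call of Igtp held in 2 of 4 such fits and that of Irf1 in only 1 of 4.

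Sequences upstream of Igtp and Irf1 are shown because they hold motifs known from interferon-induced genes. They are 250 bases upstream of a start in the same RefSeq table, both on the plus strand, at chr11:58199306-58199555 and chr11:53769764-53770013, with the motif in capitals. For Igtp this is the ISRE core (GAAA, any 2 bases, GAAA), and for Irf1 the GAS motif TTCNNNGAA, each searched on both strands.
Igtp: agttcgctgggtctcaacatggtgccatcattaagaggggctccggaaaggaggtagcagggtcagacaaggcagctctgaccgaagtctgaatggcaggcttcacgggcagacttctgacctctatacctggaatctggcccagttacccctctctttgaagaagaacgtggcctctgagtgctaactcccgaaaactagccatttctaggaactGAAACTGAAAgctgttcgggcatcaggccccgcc
Irf1: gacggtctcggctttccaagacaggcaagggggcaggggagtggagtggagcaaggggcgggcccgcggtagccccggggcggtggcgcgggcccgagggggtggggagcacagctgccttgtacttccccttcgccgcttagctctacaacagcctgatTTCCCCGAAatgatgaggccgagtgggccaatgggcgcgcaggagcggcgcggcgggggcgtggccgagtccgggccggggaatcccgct
The Igtp motif starts at -34 and the Irf1 motif at -90. The table lists another start of Irf1, whose upstream stretch holds no GAS match. Of 14 matched tested interferon-induced genes, 10 (71.4%) had the ISRE core, against 3.20% of matched tested genes and 3.46% of all genes in the table (2.98% of promoters). It was in 6.94% of matched genes that rose and 12.2% of those that fell. The GAS motif was in 18.1% of matched genes that rose and 20.4% of those that fell, against 7.21% of tested genes (7.02% of all promoters), so it was about as frequent in both directions. The SMAD core CAGAC was in 54.2% of matched genes that rose, 44.9% of those that fell and 45.3% of tested genes (42.2% of all promoters).

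Of 30 tested cell cycle genes, 18 ribosome biogenesis genes and 28 oxidative phosphorylation genes, none was called by limma. At an unadjusted p under 0.05, the cell cycle genes had 4 lower and 0 higher, the ribosome biogenesis genes 4 lower and 0 higher and the oxidative phosphorylation genes 0 lower and 0 higher. Plk1, a mitotic kinase, was at 127 and 128 FPKM without and 91.9 and 92.2 FPKM with the low dose (adjusted p = 0.175), and Myc at 161 and 106 FPKM without and 109 and 105 FPKM with the low dose (adjusted p = 0.739). Mxd4, an antagonist of Myc, rose from 7.92 and 9.19 to 28.0 and 40.6 FPKM (1.87 ± 0.20, adjusted p = 0.000534), and Ccnd3, a G1 cyclin, fell from 328 and 319 to 152 and 193 (-0.91 ± 0.15, adjusted p = 0.00841). In both genes the groups were apart. Of 15 tested galectins, annexins and S100 proteins, 2 rose and 2 fell. Lgals3, galectin 3, rose from 17.1 and 21.8 to 77.0 and 70.9 FPKM (1.88 ± 0.17, adjusted p = 0.000196). Anxa2, a membrane-binding annexin, fell from 306 and 245 to 144 and 148 FPKM (-0.90 ± 0.17, adjusted p = 0.0171). The calls of Ccnd3 and Anxa2 each held in only 1 of 4 fits that left out 1 library. Those of Mxd4 and Lgals3 held in all 4.

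Among 14 tested lineage transcription factors 2 rose, Sox4 and Ikzf4, and among 11 integrins and adhesion genes 1 rose, Itgae. Of 16 chemokines and chemokine receptors, 2 rose (Ccr8 and Cxcr6) and 1 fell (Ccl5). Ccr8, a receptor of regulatory and Th2 cells, went from 67.5 and 87.1 to 146 and 200.1 FPKM (1.15 ± 0.19, adjusted p = 0.00841), and was at 465 and 404 at 2 ng/ml. Cxcr5, the receptor that brings T cells to B cell follicles, was at 2.6 and 1.38 FPKM without and 7.78 and 5.32 FPKM with the low dose and was not called (adjusted p = 0.0769).

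No gene was called by limma among 10 tested checkpoint receptors, 15 genes of IL-2 and common gamma chain signalling and 17 ATF4 and amino acid genes. At an unadjusted p under 0.05 these lists had 2, 1 and 0 genes higher and 2, 6 and 6 lower. Pdcd1, which encodes PD-1, was at 117 and 130.5 FPKM in the controls and 209.9 and 226 at the low dose (adjusted p = 0.164). Il7r, the IL-7 receptor chain, was at 10.0 and 6.06 FPKM without and 30.6 and 17.7 FPKM with the low dose and lay close to the threshold (adjusted p = 0.0582). Of 19 cholesterol synthesis genes 1 fell, Fdps, which makes farnesyl diphosphate, from 350.5 and 324 to 178 and 221 FPKM (-0.77 ± 0.16, adjusted p = 0.0302). Of 15 immediate early genes 1 rose, Btg2, an antiproliferative gene, from 15.4 and 16.1 to 47.7 and 37.2 FPKM (1.37 ± 0.25, adjusted p = 0.0155). Among 11 T cell markers, Cd2, an adhesion receptor, fell from 845 and 794 to 396 and 559.7 FPKM (-0.80 ± 0.18, adjusted p = 0.0467). Leaving out any 1 library ended the calls of Fdps, Btg2 and Cd2.

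Several of the largest changes were in genes not yet described. Pik3ip1, a brake on PI3 kinase, rose from 10.4 and 7.94 to 54.5 and 42.5 FPKM (2.28 ± 0.26, adjusted p = 0.000606). Atp1b1, a subunit of the sodium-potassium pump, rose from 11.9 and 15.9 to 66.5 and 73.0 (2.26 ± 0.27, adjusted p = 0.000844). Tgm2, transglutaminase 2, fell from 28.8 and 12.5 to 0.445 and 0.0967 FPKM (-3.99 ± 0.37, adjusted p = 0.000196). All 3 calls held without any 1 library. Gm14085 went from 0.759 and 0.275 to 14.7 and 7.57 FPKM (2.95 ± 0.37, adjusted p = 0.00148), and Grb7, a signalling adaptor, from 0.41 and 0 to 6.6 and 3.74 (2.34 ± 0.39, adjusted p = 0.00841). Both were near 0 in the controls, and the call of Grb7 held in only 1 of 4 fits that left out 1 library. Lif, a cytokine of the IL-6 family, fell from 12.3 and 4.85 to 0.157 and 1.21 FPKM (-2.47 ± 0.38, adjusted p = 0.00491). The joint entry Ly6a,Ly6c1 went from 397 and 183 to 13.9 and 9.25 FPKM (-4.45 ± 0.63, adjusted p = 0.00324), and the reads cannot be assigned to 1 of its genes. Ly6a is on the interferon-induced list but was not among its tested members because its entry is joint. Snord49a and Snora31, small nucleolar RNAs, were listed at 0 in both low-dose libraries, and their calls are uncertain because a 0 can be a failed estimate.

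The same dose step was measured in tKO cells, in libraries shared with no WT group. There 257 genes were called (2.48%), of which 176 rose (1.70%) and 81 fell (0.782%). Scaling the libraries to the same FPKM sum gave 89 higher and 81 lower, and the count ran from 108 without 0 ng/ml replicate 1 to 708 without 0.2 ng/ml replicate 1. The shares that follow rest on the unscaled values of all libraries. Of the tKO genes, 39 also rose in WT cells, which is 41.1% of the WT risers and 22.2% of the tKO risers, and 6 also fell in WT cells, 8.57% of the genes that fell in WT and 7.41% of those that fell in tKO cells. Over the 95 genes that rose in WT cells the median fold change in tKO cells was 0.85, and over the 70 that fell it was -0.06. The difference of the dose effect between the genotypes, tested in the same model, was called for 45 genes (0.435%). Ctsw rose in both, by 2.79 in WT and 3.09 in tKO cells, with a difference of 0.30 (adjusted p = 0.906). Ldlrad4 rose by 3.09 and 2.79 (difference -0.30, adjusted p = 0.938). Tpi1 changed by -1.06 in WT cells and had a fold change of 0.11 in tKO cells, where it was at 1519 and 1777 FPKM without TGF-b. The difference was 1.17 (adjusted p = 0.0464). For Bnip3 it was 1.37 (adjusted p = 0.0289) and for Ifitm3 2.96 (adjusted p = 0.028), and these 3 calls of a difference each held in only 1 of 8 fits that left out 1 library. Foxp3 rose by 1.27 in WT and 3.26 in tKO cells, where it started from 1.99 and 3.77 FPKM. That difference was not called (adjusted p = 0.0511). The tKO library at 0.2 ng/ml, replicate 2, had the lowest reads per FPKM of the 12, at 0.576.

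**Figure D4:**
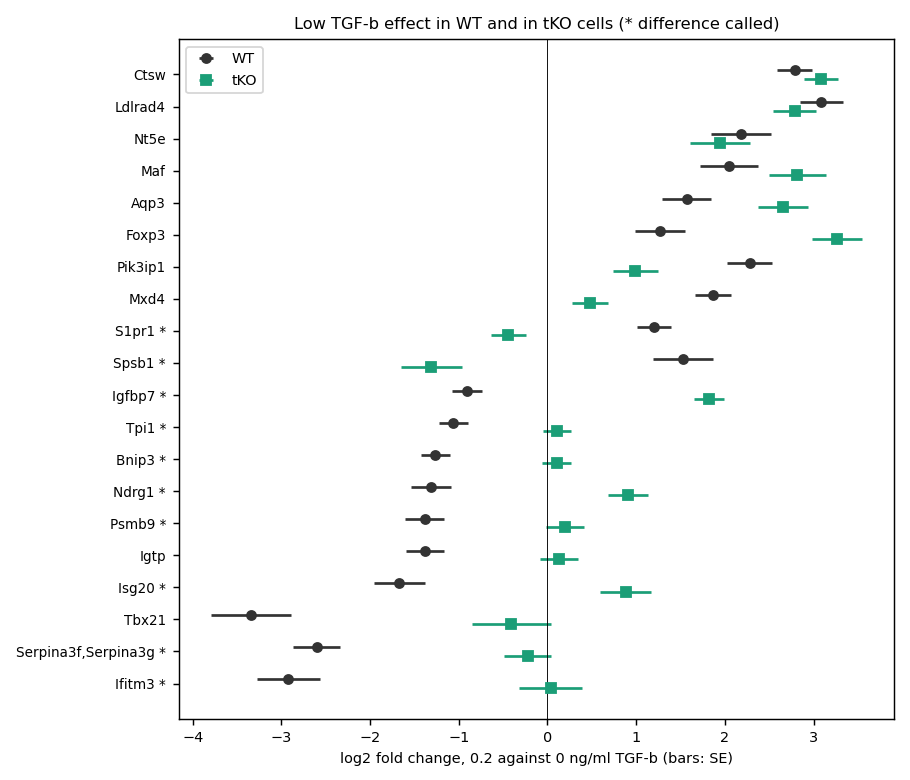
Log2 fold change at 0.2 against 0 ng/ml TGF-b (horizontal axis) with its standard error for 20 genes in WT (circles) and tKO cells (squares), chosen after their values were seen. The standard error rests on a variance pooled over the 6 groups, so for each gene it is the same in both genotypes. An asterisk marks a gene whose difference between the genotypes was called, such as Tpi1 with a difference of 1.17.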

How the data were processed

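The authors deposited FPKM values per library, per the file headers. Build mm9 and the tools Trimmomatic, TopHat, Cufflinks and Cuffdiff come from the submitters' processing notes, with no version or role. RNA was amplified with a SMARTer kit, per the labels' protocols, which does not mark strand. Of 34309 entries, 8483 without a symbol were left out. Distinct rows were summed per symbol (22783 symbols), and 10354 genes averaging 1 FPKM or more in the 12 WT and tKO libraries were tested on log2(FPKM + 1). The test was from limma 3.58.1 (R 4.3.3), with a trended variance pooled over the 6 groups of 2, two-sided, with Benjamini-Hochberg adjustment. No counts were used, so no counting interval is given. A 0 can be a failed estimate. Coordinates are as the table gives them. Named genes were the 12 largest rises, the 12 largest falls and the 8 smallest p among called genes, list members with the smallest p, a fixed panel, and the 4 most positive and 4 most negative called tKO minus WT differences. The text describes a selection of them, and some are not reported here. Of 35 lists, 399 genes were tested. Members, lists and motifs were chosen with earlier results of these data known. The experiment with DMOG was not used here. The model was tested on simulated data, and alternatives are given in the closing section.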

Additional observations from a re-analysis of the deposited data

Results flagged for a closer look

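The effect of 0.2 against 0 ng/ml TGF-b differed between tKO and WT cells, by limma's test of the difference, for 25 genes that were named or called in WT cells, 17 of which were called in WT cells. Over all 10354 tested genes, 45 (0.435%) were called in that test. The named genes include its 4 most positive and 4 most negative called differences. Genes called in WT cells were chosen on the WT effect, which is part of the difference. The 25 are therefore a description. Differences are tKO minus WT on the log2 scale. The effect was more positive in tKO cells for Pld4 (3.64), Plac8 (3.62), AA467197 (3.60), Pdzk1ip1 (3.10), Ifitm3 (2.96), Igfbp7 (2.73), Isg20 (2.55), Serpina3f,Serpina3g (2.38), Ndrg1 (2.22), S100a6 (2.04), Mgarp (1.67), Psmb9 (1.58), Cd2 (1.38), Bnip3 (1.37), Stk39 (1.20), Tpi1 (1.17). It was more negative in tKO cells for Il24 (-4.63), Rnd3 (-4.06), Il4 (-3.67), Ajuba (-3.57), Gm14085 (-2.91), Spsb1 (-2.84), Slc43a1 (-2.60), S1pr1 (-1.64), Gata3 (-1.63). Igfbp7, an insulin-like growth factor binding protein, changed by -0.91 in WT and by 1.82 in tKO cells (adjusted p of the difference = 0.000437), and its call held in 8 of 8 fits that left out 1 library. Il24 held in 6 of 8, Ndrg1 in 4 of 8 and Rnd3 in 3 of 8. Of the other genes, 5 held in 2 of 8 fits and 16 in only 1 of 8. Il24 and Il4 were below 0.5 FPKM in the WT libraries at 0 and 0.2 ng/ml.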

How the results depend on the processing

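Counts of called genes depended on the model more than directions did. For 0.2 against 0 ng/ml in WT cells, 165 genes were called, 72 with no filter on low values (49 higher and 23 lower), 105 with no mean-variance trend, 81 with only the libraries of the groups compared, 283 with the replicate block (143 higher and 140 lower), and 31 to 74 when 1 library was left out. The other settings gave between 139 and 202. For 2 against 0 ng/ml the counts without 1 library were 660 to 1132. For 2 against 0.2 ng/ml, with 45 called, the count was 98 with a pseudocount of 5, 83 with quantile normalization, 122 with the replicate block, 19 with only the WT libraries and 8 to 21 without 1 library. It was 0 with only the libraries of the groups compared, by limma, where the fit on all libraries had 1336 genes at an unadjusted p under 0.05. For 0.2 against 0 ng/ml in tKO cells, with 257 called, it was 27 with only the groups compared, 413 with the replicate block and 108 to 708 without 1 library, with 708 without 0.2 ng/ml replicate 1. Scaling to the same FPKM sum gave 170 (89 higher and 81 lower). For the difference between genotypes, with 45 called, it was 17 with a pseudocount of 0.1, 16 with no filter, 5 with no trend, 10 with only the groups compared, 106 with the replicate block and 1 to 110 without 1 library. It was 29 with libraries scaled to the same FPKM sum, which moved the median difference over all genes to -0.11. The cause of these shifts was not tested, except that fits without a library or with fewer groups rest on fewer samples.

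The deviations of libraries with the same number correlated at 0.186 between 0 and 0.2 ng/ml, 0.0573 between 0 and 2 ng/ml and 0.0899 between 0.2 and 2 ng/ml in WT cells, and at 0.416, 0.127 and 0.110 for the same pairs of doses in tKO cells. Not every pair passed 0.1 and each group has 2 libraries, so whether the numbers pair the libraries is not settled, and the replicate block is given as an alternative. With the block, 6 regulatory T cell genes rose and 4 fell. Of 61 named genes that were called, 16 were called under every alternative, and of 47 that were not, 11 were called under at least 1. No called gene that is named changed sign in the 0.2 against 0 ng/ml comparison in WT cells. The balance of calls did turn elsewhere. For the difference between genotypes, 27 higher and 18 lower became 4 and 12 with no filter, 1 and 4 with no trend, and 3 and 7 with only the groups compared. For 2 against 0.2 ng/ml, 28 higher and 17 lower became 15 and 17 with a pseudocount of 0.1, and 8 and 13 without 2 ng/ml replicate 1. For tKO cells, 176 higher and 81 lower became 13 and 14 with only the groups compared. With 2 libraries per group, a gene that was not called may still differ.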

Other observations

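Some gene families stood out when the called genes were read through, and they were chosen after their values were seen, so the counts below are descriptions. Of 14 tested genes known to restrain growth, 9 were called higher and none lower. Among them, Ypel3 went from 46.9 and 57.2 to 159.6 and 226 FPKM, Tsc22d3, a glucocorticoid-induced leucine zipper protein, from 15.7 and 9.92 to 52.1 and 55.4, Sesn1 from 30.8 and 22.8 to 87.9 and 73.1 and Btg1 from 136 and 130.1 to 301 and 251. Of 13 tested interferon-inducible GTPases, 6 were called lower and none higher, with a median log2 fold change of -1.48. Gbp5 went from 46.8 and 19.9 to 5.76 and 7.11 FPKM and Gm12250 from 90.5 and 57.3 to 16.6 and 24.1. A list of 11 tested genes held genes of the immunoproteasome and peptide loading together with Irf1, Nlrc5 and Ube2l6, which are not parts of either. Of the 11, 5 were called lower. They were Psmb9 (304 and 257 to 92.9 and 122 FPKM), Psmb8 (957 and 941 to 440.4 and 541), Tapbpl, Ube2l6 and Irf1, which is described above. Psme1, Psme2, Tap1, Tap2, B2m and Nlrc5 were not called.

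Both tested Ctla2 entries were called higher, Ctla2a from 16.1 and 28.9 to 97.3 and 97.2 FPKM and the joint entry with Ctla2b from 4.18 and 6.81 to 32.6 and 45.5. Apol9a and Apol9b were also called higher, from 0.638 and 2.84 to 7.36 and 16.1 and from 4.33 and 7.77 to 31.5 and 36.7 FPKM. Apol7e, the other tested apolipoprotein L gene, was not called by limma (0.09 ± 0.65, adjusted p = 0.987). Sequences within these families were not compared, so how reads divide between related genes is uncertain. Cd72, a receptor known from B cells, was called higher in the same comparison, from 14.0 and 15.6 to 38.8 and 41.5 FPKM.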
